A study of Homo sapiens with 4 samples.

Results

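The genes described here are 32 genes of DNA replication and of the passage from G1 into S phase, chosen by symbol. All 32 were found once each in a table of 17064 gene rows. The RNA came from KYSE-150, an established human line of esophageal squamous cell carcinoma. Cells labelled as normal (control) were compared with cells labelled as carrying a stable short hairpin RNA against NSUN6, an RNA methyltransferase that forms 5-methylcytosine. From each kind of cell, poly(A) RNA of the whole lysate (input) and RNA bound to polyribosomes were measured, which gave 4 libraries with 1 library per group. Both kinds of cell received 100 µg/ml cycloheximide, which holds elongating ribosomes on their messages. The input was 10% of the cleared lysate, and ribosomes of the remainder were pelleted through 30% sucrose in 5 hours. Such a pellet can hold single ribosomes and other large particles besides polyribosomes. Without replicates, no p-value, SD or interval can be given for any difference below. Values are FPKM, fragments per length of transcript and per total of mapped fragments, so levels can be compared between genes, and the read depth is unknown.

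DNA replication begins when the origin recognition complex, CDC6 and CDT1 load the ring-shaped MCM2-7 helicase on DNA in G1 phase. At the start of S phase, cyclin E with its kinase helps to activate this helicase, which CDC45 and the GINS complex join, and the polymerases follow with PCNA as a sliding clamp. Transcription of many of these genes is driven by E2F factors, which the retinoblastoma protein restrains, and their messages are abundant in dividing cells such as cancer lines.

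The identity of the second pair of libraries carries a limit for every comparison with it. The table ends with another line of names, which calls the control columns K150 with a hairpin against GFP and the other columns K30 with a hairpin against Mettl1. Its order of the latter 2 fractions is the reverse of the header's. The header, whose names equal those in the sample labels, was followed, and the second pair is called knockdown-labelled. NSUN6 had 8.85 FPKM in control input and 10.13 FPKM on control polyribosomes, against 3.83 and 0.38 FPKM in the knockdown-labelled input and polyribosome libraries. METTL1, a tRNA methyltransferase gene, had 13.02 and 14.32 FPKM in the control libraries and 5.98 and 8.32 FPKM in the knockdown-labelled ones, so both genes were lower there. The summed level of 9 markers of squamous epithelium was 1333 and 1677 FPKM in the control libraries but 113.5 and 67.5 FPKM in the knockdown-labelled libraries. Markers of epithelium in general summed to between 3679 and 7512 FPKM in the 4 libraries. These sums hide single markers that went opposite ways in input, in log2(FPKM + 1), knockdown-labelled minus control. Of the 7 squamous markers that averaged 5 FPKM or more, 5 were lower and 2 higher, from -9.29 to 4.95. Of the 7 general markers, 6 were higher and 1 lower, from -0.13 to 10.4. The 5 fibroblast markers summed to at most 2.91 FPKM in any library. Of 8 immune and endothelial markers, only CD68 reached 1 FPKM in any library, with 71.23 and 69.33 FPKM in the control pair and 5.90 and 6.38 FPKM in the other pair. Whether a difference between the 2 kinds of cell belongs to a hairpin or to another line cannot be told apart from these libraries.

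The promoters of these genes share a feature that the choice of members did not use. A word of the E2F consensus, any of TTTCCCGC, TTTCCCGG, TTTCGCGC, TTTCGCGG, TTTGCCGC, TTTGCCGG, TTTGGCGC and TTTGGCGG on either strand, was searched for in RefSeq windows (build GRCh38.p14) from 250 bases before to 50 bases after each start. It was present for 18 of the 28 genes matched, or 64.3%. The share was 13.1% of 5789 genes that averaged 5 FPKM or more in these libraries and 7.43% of all 27305 genes with a window. The 4 others are MCM4, MCM5, GINS4 and CCNE2. The CCAAT box, CCAAT on either strand, was present for 16 of 28 genes (57.1%, against 43.7% of those that averaged 5 FPKM or more and 39.7% of all genes). TTTGAA, the core of an element found in promoters of mitotic genes, was present for 2 of 28 (7.14%), against 11.8% and 18.2%. Words on the 2 strands can overlap, as in MCM6, and a match is a run of letters, not a measured binding site. Stretches that overlap no annotated exon are shown for 4 genes whose input RNA differed in different ways: higher in knockdown-labelled cells for MCM6 and PCNA, nearly level for MCM3 and lower for POLA1. The E2F words are in capitals, with 20 bases on either side, 5′ to 3′ along the gene's strand.
MCM6: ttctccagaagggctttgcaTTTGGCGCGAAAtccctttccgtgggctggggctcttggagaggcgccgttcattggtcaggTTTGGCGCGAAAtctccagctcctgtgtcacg
PCNA: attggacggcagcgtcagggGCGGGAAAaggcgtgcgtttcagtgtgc
MCM3: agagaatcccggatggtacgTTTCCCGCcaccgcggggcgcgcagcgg
POLA1: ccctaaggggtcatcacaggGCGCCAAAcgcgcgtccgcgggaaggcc
These lie at chr2:135876502-135876615 (minus strand) for MCM6, chr20:5126654-5126701 (minus strand) for PCNA, chr6:52284889-52284936 (minus strand) for MCM3 and chrX:24693761-24693808 (plus strand) for POLA1. The MCM6 stretch holds the same run 2 times, each with a word on either strand that overlap, and the other stretches hold 1 word each. In the other order of the fractions, described above, the input differences of all 4 genes are below 0.

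All 32 genes were detected in every library, over a wide range of levels. In control input the lowest was CCNE2, the second cyclin E, at 1.16 FPKM, the median was 35.4 FPKM, and the highest was the clamp PCNA at 126 FPKM. The median over the 32 genes was 42.1 FPKM on control polyribosomes, 38.7 FPKM in knockdown-labelled input and 35.6 FPKM in the knockdown-labelled polyribosome library. The medians thus lay close together, whereas single genes moved far, as the plot of levels by library shows. Differences below are of log2(FPKM + 1). They cover the 7379 genes, 29 of the 32 among them, that averaged 5 FPKM or more. The 3 genes below this limit were MCM10, POLA1 and CCNE2. CCNE1 passed through its values in the knockdown-labelled libraries, so it had to differ.

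**Figure D1:**
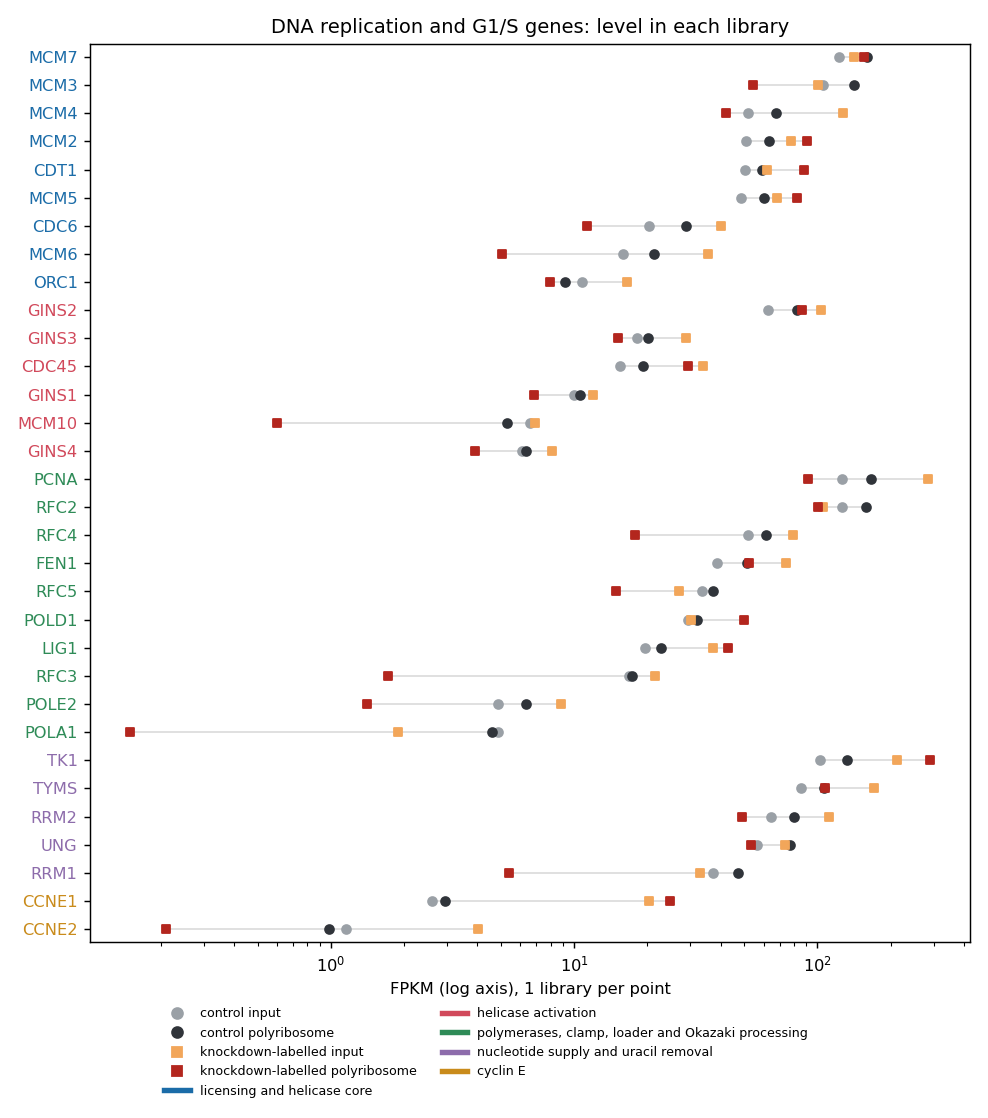
FPKM of each of the 32 genes (log axis) in control input, control polyribosome RNA, knockdown-labelled input and knockdown-labelled polyribosome RNA, 1 library per point, with gene names coloured by role. The control points of a gene lie close together, while the knockdown-labelled polyribosome point is far to the left for genes such as RFC3 (1.72 FPKM), RRM1 (5.42 FPKM) and MCM6 (5.04 FPKM) and to the right for TK1 (291 FPKM).

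In control cells, messages of replication genes were slightly more abundant on polyribosomes than in input, with little spread among them. Translation efficiency, as used below, is log2 of polyribosome FPKM over input FPKM after adding 1 to both. It was above 0 for 28 of 29 genes, against 54.3% of all genes, with a median of 0.31 against 0.03. The highest values were 0.48 for CDC6, which loads the helicase, 0.44 for UNG, which removes uracil from DNA, and 0.42 for MCM3. ORC1, the largest subunit of the origin recognition complex, was the exception at -0.21. None of the 29 was 2-fold apart: 0 genes were higher and 0 lower by that much, where 0% and 0.759% of all genes were. In nucleotide supply, RRM1, RRM2, TYMS, TK1 and UNG all lay between 0.30 and 0.44.

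Input RNA of replication genes was higher in knockdown-labelled than in control cells for most genes. The difference was above 0 for 25 of 29 genes, against 50.7% of all genes, and the median was 0.60 against 0.01. At least 2-fold higher were 6 of 29 genes (20.7%), where 13.2% of all genes were, and 0 were lower by as much, where 14.4% were. Without CCNE1, which had to differ, 5 of 28 (17.9%) were higher. In bulk RNA, a larger share of cells in S phase and more message per cell cannot be told apart. With the knockdown-labelled fractions exchanged, as that last line has them, the median was -0.30 and 12 of 29 were above 0. At least 2-fold higher were then 3 genes and lower 6, where 1171 and 2343 of all 7379 genes were. The median of all genes was -0.23 in that order, so the medians lay close.

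Cyclin E1 stood furthest apart in input. CCNE1 had 2.60 FPKM in control input, 2.95 FPKM on control polyribosomes, 20.31 FPKM in knockdown-labelled input and 24.73 FPKM on knockdown-labelled polyribosomes. Both knockdown-labelled values exceeded both control values, so the gene was higher in either order of the fractions, and the input difference was 2.57. CCNE1 averaged 5 FPKM or more only through its knockdown-labelled values, so that it differed follows from that limit. CCNE2 was at 1.16, 0.98, 4.01 and 0.21 FPKM in the same order, so its 2 knockdown-labelled values lay on either side of its control values. TK1, the thymidine kinase of the salvage pathway, was at 102.56 and 132.64 FPKM in control and had 211.54 FPKM in input and 291.18 FPKM on polyribosomes of knockdown-labelled cells. It was likewise higher in both, with an input difference of 1.04. LIG1, the ligase that joins Okazaki fragments, was at 19.57, 22.83, 37.20 and 42.68 FPKM. Both knockdown-labelled values lay above both control values for 10 of 29 genes (34.5%), where this held for 26.1% of all genes, and without CCNE1 for 9 of 28. Besides CCNE1, TK1 and LIG1 these were MCM2, MCM5, CDT1, CDC45, GINS2, FEN1 and TYMS, the last 3 by a small margin in polyribosome RNA. The margin of CDT1 was also small, with 62.29 FPKM in knockdown-labelled input against 59.21 FPKM on control polyribosomes. Both lay below for 4 genes (13.8%), MCM3, RFC2, RFC5 and RRM1, where this held for 31.3% of all genes. Such genes are apart whichever fraction is which, and this count was added after the values were seen.

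Among licensing and helicase genes, 8 of 9 were higher in knockdown-labelled input, with a group median of 0.57. With the fractions exchanged 4 of 9 were, CDT1, MCM2, MCM5 and MCM7, and the group median was -0.30. For MCM4 the levels were 52.04 and 127.31 FPKM, in this order of control and knockdown-labelled input, the largest difference of the group at 1.27. MCM6 was at 15.84 and 35.41 FPKM, a difference of 1.11. MCM3 was at 105.61 and 100.63 FPKM and so close to equal. CDC6 was at 20.33 and 40.18 FPKM (0.95), whereas its partner in loading, CDT1, was at 50.30 and 62.29 FPKM (0.30). ORC1 was at 10.76 and 16.51 FPKM, a difference of 0.57. CDC45, which joins the helicase to activate it, was at 15.37 and 33.81 FPKM (1.09). GINS1 to GINS4, which form the 4-part GINS complex, differed by 0.23 to 0.72, with GINS1 lowest and GINS2 highest. MCM10, which helps to activate the helicase, was nearly level in input at 6.57 and 6.92 FPKM.

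Genes of DNA synthesis went both ways in input. For PCNA, control cells had 126.18 FPKM and knockdown-labelled cells 285.50 FPKM, which gives 1.17. FEN1, the nuclease that trims Okazaki fragments, was at 38.61 and 74.16 FPKM (0.92). The clamp loader was split: RFC4 and RFC3 differed by 0.60 and 0.34, but RFC2 and RFC5 by -0.25 and -0.30. In the exchanged order all 4 were below 0, RFC4 at -1.49, RFC3 at -2.71, RFC2 at -0.31 and RFC5 at -1.12. POLD1, the catalytic subunit of polymerase delta, was at 29.48 and 30.09 FPKM, while POLE2, a subunit of polymerase epsilon, was at 4.87 and 8.80 FPKM. POLA1, the catalytic subunit of the polymerase that starts each strand, was low in all libraries, at 4.85, 4.61, 1.89 and 0.15 FPKM. Its input difference was -1.02, and -2.35 with the fractions exchanged. In nucleotide supply, TYMS, the thymidylate synthase, was at 85.61 and 170.55 FPKM (0.99) and RRM2, the small subunit of ribonucleotide reductase, at 64.60 and 111.62 FPKM (0.78). RRM1, the large subunit of the same enzyme, was at 37.31 and 32.90 FPKM. UNG differed by 0.38.

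In polyribosome RNA 18 of 29 genes (62.1%) were lower in the knockdown-labelled library, where 57.6% of all genes were. The median difference was -0.52, against -0.28 for all genes, and the interquartile range was 1.71 where it was 0.65 in input. Over all genes these ranges were wider, at 2.01 and 1.17. At least 2-fold lower were 8 of 29 genes (27.6%), where 32.9% of all genes were. At least 2-fold higher were 2 genes, CCNE1 at 2.70 and TK1 at 1.13, where 16.7% were, and without CCNE1 it was 1. The count of lower genes was thus near that of all genes, which is no result about replication genes. With the fractions exchanged, 0 genes were at least 2-fold lower and 1 was higher, with a median of 0.36. Of all 7379 genes, 1031 were then lower by as much and 936 higher, with a median of -0.01. With the trend on GC content and transcript length removed across all genes, 4 were lower and 1 higher, where 26.3% and 10.4% of all genes were.

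**Figure D2:**
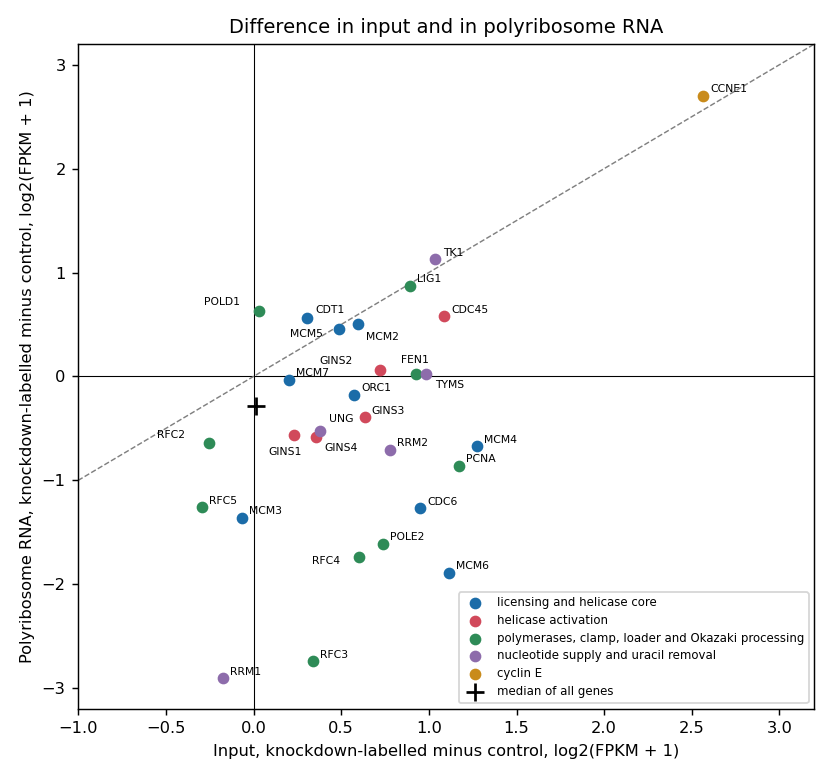
Difference between knockdown-labelled and control cells in input (horizontal axis) and in polyribosome RNA (vertical axis), both of log2(FPKM + 1), for the 29 genes that averaged 5 FPKM or more, 1 point per gene, coloured by role. The dashed line marks equal differences and the cross the median of all 7379 genes; RRM1 and RFC3 lie far below the line at -2.91 and -2.74 in polyribosome RNA, and CCNE1, TK1 and LIG1 lie close to it.

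RRM1 had the lowest difference in polyribosome RNA. It was at 47.13 FPKM on control polyribosomes and 5.42 FPKM in the knockdown-labelled library, a difference of -2.91, with input levels that were close to each other. RFC3, a small clamp loader subunit, was at 17.21 and 1.72 FPKM (-2.74). MCM6 was at 21.37 and 5.04 FPKM (-1.89), although its input was higher in knockdown-labelled cells. RFC4 was at 61.51 and 17.77 FPKM, POLE2 at 6.37 and 1.41 FPKM, and MCM3 at 141.33 and 54.31 FPKM. CDC6, at 28.73 and 11.33 FPKM, and RFC5, at 37.09 and 14.91 FPKM, complete the 8 genes. At the other end, POLD1 was at 31.85 and 49.98 FPKM, CDT1 at 59.21 and 87.93 FPKM, and MCM2 at 63.19 and 90.25 FPKM. FEN1, TYMS, GINS2 and MCM7 were nearly level, between -0.03 and 0.06.

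Translation efficiency differed between the 2 kinds of cell for many of these genes. In knockdown-labelled cells it was below 0 for 21 of 29 genes, against 50.6% of all genes, with a median of -0.72 against -0.02. On knockdown-labelled polyribosomes 9 of 29 genes (31.0%) were at least 2-fold lower than in input, where 28.8% of all genes were, and 0 were at least 2-fold higher, where 8.62% were. The difference in efficiency, knockdown-labelled minus control, was below 0 for 25 of 29 genes, against 54.4% of all genes, with a median of -0.90 against -0.12. At least 2-fold lower were 11 of 29 genes (37.9%), where 30.1% of all genes were, and 0 were at least 2-fold higher, where 12.0% were. The share of lower genes was thus not far from that of all genes. By construction the exchange of the fractions turned the sign of the efficiency in knockdown-labelled cells. The median difference was then 0.46, with 9 genes at least 2-fold higher and 0 lower. Of all 7379 genes, 2049 were higher and 464 lower by as much in that order, with a median of -0.05.

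**Figure D3:**
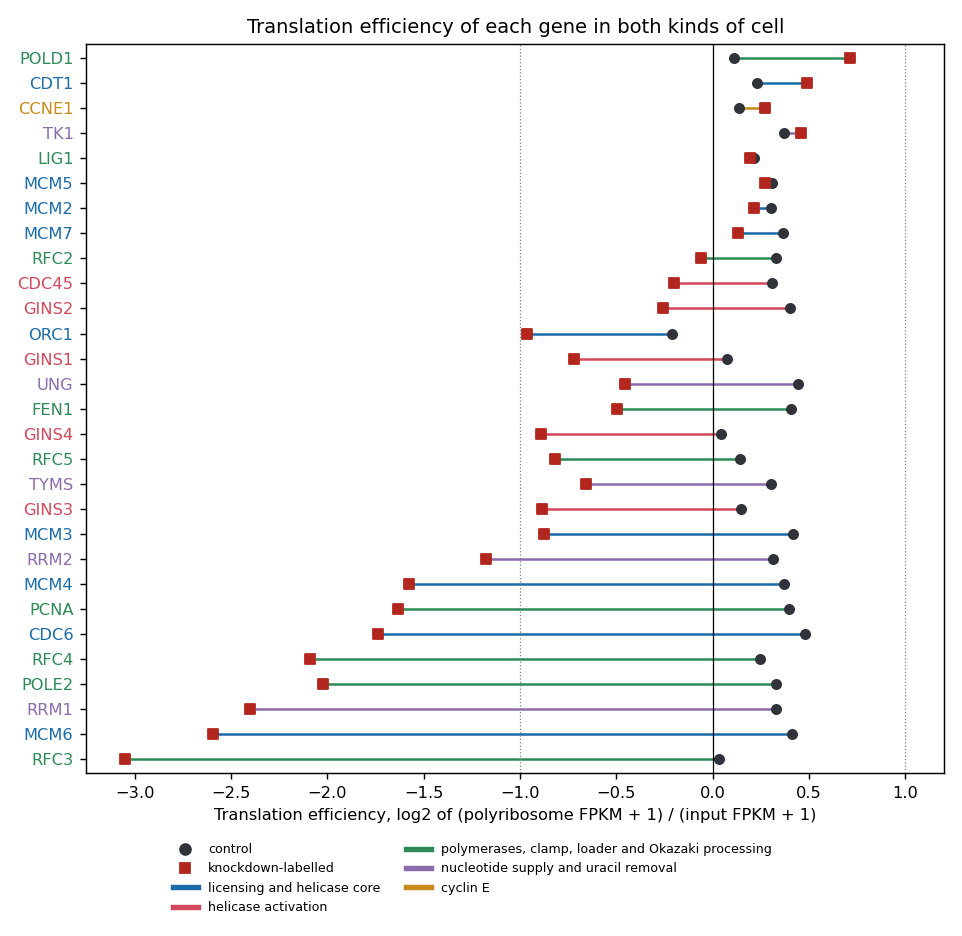
Translation efficiency (log2) of the 29 genes in control (circles) and knockdown-labelled cells (squares), joined by a line coloured by role and ordered by their difference. Control values lie between -0.21 and 0.48, and knockdown-labelled values between -3.05 for RFC3 and 0.71 for POLD1; dotted lines mark a 2-fold ratio.

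The genes of lower efficiency came from 4 of the 5 role groups, and the last, cyclin E, has CCNE1 alone above 5 FPKM. In licensing and the helicase they were MCM6 (-3.00), CDC6 (-2.22), MCM4 (-1.95) and MCM3 (-1.29), 4 of 9 genes. In DNA synthesis they were RFC3 (-3.08), POLE2 (-2.35), RFC4 (-2.34) and PCNA (-2.03), 4 of 9 genes. RRM1 (-2.73) and RRM2 (-1.49) were 2 of the 5 genes of nucleotide supply, and GINS3 (-1.03) was 1 of the 5 of helicase activation. For PCNA the fractions went in opposite directions: input was 2.25-fold higher after adding 1 FPKM, while polyribosome RNA went from 166.35 FPKM in control to 91.33 FPKM. MCM4 likewise had 67.61 FPKM on control and 41.98 FPKM on knockdown-labelled polyribosomes, below its control level in that fraction alone. RRM2 had 80.36 and 48.80 FPKM on polyribosomes, and GINS3 20.15 and 15.09 FPKM, each with a higher input. Among genes short of a 2-fold difference, TYMS was at -0.96, RFC5 at -0.96, GINS4 at -0.93, FEN1 and UNG at -0.90, GINS1 at -0.80, ORC1 at -0.75, GINS2 at -0.66, CDC45 at -0.51, RFC2 at -0.39 and MCM7 at -0.24. The efficiency of POLD1 differed by 0.61, of CDT1 by 0.26, of CCNE1 by 0.14 and of TK1 by 0.09, and these 4 were the only genes above 0. MCM2, MCM5 and LIG1 lay between -0.09 and -0.02. Of the genes below 5 FPKM on average, MCM10 was at 5.32 FPKM on control and 0.60 FPKM on knockdown-labelled polyribosomes and POLA1 at 4.61 and 0.15 FPKM. CCNE2 was at 0.98 and 0.21 FPKM there, with an efficiency difference of -1.92. In the authors' deposited table, whose ratio has 5 FPKM added to both terms, the efficiency of MCM6 was 1.27 in control and 0.248 in knockdown cells. There POLD1 was at 1.07 and 1.57.

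The ratio of the highest to the lowest subunit of a complex was largest in the knockdown-labelled polyribosome library. The 6 subunits of the MCM2-7 ring, which are used in equal numbers, spanned from MCM6 at 15.84 FPKM to MCM7 at 123.08 FPKM in control input, a ratio of 7.77. That ratio was 7.44 on control polyribosomes and 4.00 in knockdown-labelled input, but 30.8 on knockdown-labelled polyribosomes, where MCM6 was at 5.04 and MCM7 at 155.24 FPKM. The same 2 genes were lowest and highest in each library. For RFC2 to RFC5, the small subunits of the clamp loader, the ratio of highest to lowest was 7.49, 9.18, 4.90 and 58.6 in the same order of libraries, with RFC2 highest and RFC3 lowest throughout. RRM2 exceeded RRM1 by a ratio of 1.73 in control input, 1.71 on control polyribosomes, 3.39 in knockdown-labelled input and 9.004 on knockdown-labelled polyribosomes. For GINS1 to GINS4 the ratio was between 10.2 and 13.0 in the first 3 libraries and 22.1 in the last. With the fractions exchanged, these wide ratios belong to input in place of polyribosome RNA. No such ratio was computed for other sets of genes, and the 58.6 rests on RFC3 at 1.72 FPKM, with the read depth unknown. The lowest gene of each complex also had a lower GC content than the highest. It was 43.1% in MCM6 and 58.1% in MCM7, and 39.1% in RFC3 and 53.6% in RFC2. RRM1 and RRM2 (43.0% and 45.8%) and GINS4 and GINS2 (47.9% and 49.1%) were closer. The part of GC content in these ratios was not tested.

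The base composition of the messages moved with these differences. GC content was computed for 1 transcript per gene, the one with the longest complete coding part in GENCODE 29, and was found for all 32 genes. Among the 29 genes it ran from 39.1% in RFC3 to 64.97% in POLD1, with a median of 50.7%, where all genes had 52.5%. Across these 29 genes, which share their libraries and are not independent, Spearman's rho between GC content and the efficiency in knockdown-labelled cells was 0.87, and Pearson's r was 0.86. In control cells rho was -0.05, for the input difference it was -0.03, and for the polyribosome difference 0.81. Across 7336 genes with a value, rho for the knockdown-labelled efficiency was 0.82 and for the control efficiency 0.02, so the relation also held among all genes. Exchange of the fractions turns the sign of the knockdown-labelled values, and the part of base composition in the difference was not tested beyond its removal below. Transcript length showed little relation to the knockdown-labelled efficiency among the 29 genes, with a rho of 0.03, whereas across the 7336 genes it was -0.25.

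**Figure D4:**
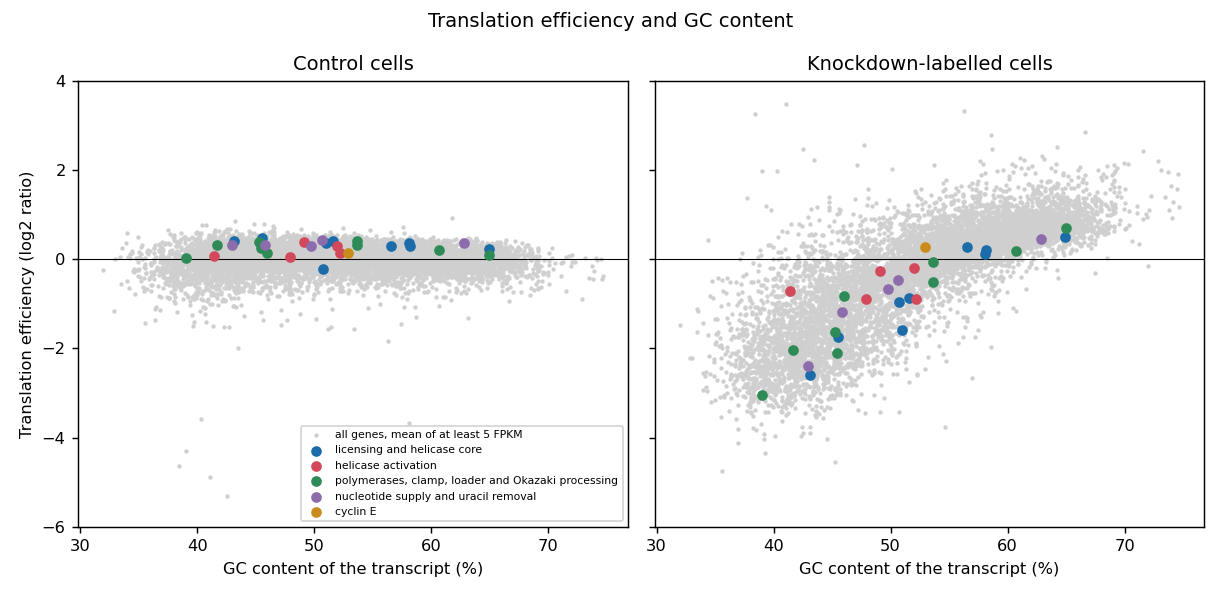
Translation efficiency (log2) against GC content of the transcript (%), in control (left) and knockdown-labelled cells (right); grey points are all genes that averaged 5 FPKM or more, coloured points the 29 replication genes by role. The control cloud is flat, and the knockdown-labelled cloud climbs with GC content, with RFC3 (39.1% GC) at -3.05 and POLD1 (64.97% GC) at 0.71.

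Below a GC content of 50%, 13 replication genes had efficiency differences from -3.08 to -0.66, and 8 of them (61.5%) were at least 2-fold lower, where 67.3% of all genes of such GC content were. At 50% or above, 16 genes ranged from -1.95 to 0.61 and 3 (18.8%) were at least 2-fold lower, where 4.71% of all genes were. These 3 were MCM4 (51.0% GC), MCM3 (51.6%) and GINS3 (52.2%), near the limit of 50%. The GC content of all genes reached 74.7%, so these 2 shares cover unlike GC contents. Stretches of coding sequence are shown for 2 genes of low and 2 genes of high efficiency in knockdown-labelled cells. Each is bases 301 to 360 of the coding part of the GENCODE 29 transcript, read along the coding strand, with capitals for a G or C in the third position of a codon.
RFC3: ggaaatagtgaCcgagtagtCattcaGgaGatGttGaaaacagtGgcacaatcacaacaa
RRM1: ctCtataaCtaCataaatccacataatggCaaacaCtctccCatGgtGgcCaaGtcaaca
CDT1: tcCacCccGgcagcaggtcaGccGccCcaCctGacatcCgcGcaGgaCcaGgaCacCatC
POLD1: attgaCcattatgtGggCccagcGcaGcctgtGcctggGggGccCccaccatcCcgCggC
Of these 20 codons, 7 end in G or C in RFC3, 10 in RRM1, 16 in CDT1 and 12 in POLD1, so RRM1 and POLD1 lie close in this stretch. Over the whole coding part the share is 41.0% in RFC3, 44.4% in RRM1, 82.8% in CDT1 and 84.7% in POLD1. The genes lie on chromosome 13 (RFC3, 33818049 to 33966558), chromosome 11 (RRM1, 4094707 to 4138876), chromosome 16 (CDT1, 88803213 to 88809258) and chromosome 19 (POLD1, 50384204 to 50418016) of GRCh38, all on the plus strand.

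The trend on GC content and length was removed across all genes, in the header's order of the fractions. In that order the range narrowed and replication genes stayed below all genes in efficiency. The difference then ran from -1.85 in MCM6 to 0.57 in GINS1, with a median of -0.84 where that of all genes was -0.40. Below the median of all genes lay 24 of 29 replication genes, against 22 without the removal. At least 2-fold lower were 12 genes, of which 10 were among the 11 above, where 17.8% of all genes were. RRM2 was no longer among them, at -0.68, while TK1 at -1.09 and FEN1 at -1.07 were added. RFC3 moved to -1.42, RRM1 to -1.57, POLD1 to -0.65 and CDT1 to -0.99. Above 0 remained CCNE1 at 0.03, and GINS1 was added. The removal kept the mean of all genes, of which 71.2% were then below 0 and 28.2% above. The input differences hardly moved, with a median of 0.59. With the fractions exchanged the removal was not run. Without it, the median efficiency difference in that order was 0.46 for replication genes and -0.05 for all genes.

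Other genes of the pathway were taken from 5 lists of 66 genes, of which 47 passed 5 FPKM. In input 7 of the 47 (14.9%) were at least 2-fold higher and 4 (8.51%) lower, where 13.2% and 14.4% of all genes were, with a median of 0.30. Their efficiency differences had a median of -0.96, with 22 (46.8%) lower and 5 (10.6%) higher by as much, where 30.1% and 12.0% of all genes were. These shares of all genes are the background for each list below. With the fractions exchanged these medians were -0.63 and 0.73, so each direction below rests on the header's order. With GC content and length removed, the efficiency median of the 47 was -0.47, near the -0.40 of all genes. By list it was then -0.67 for factors of origins and forks, from -2.02, and -1.07 for chromatin genes, from -1.08. Among factors of origins and forks, 1 of 11 was at least 2-fold higher in input, ORC5 of the origin recognition complex at 1.13, and 0 were lower. In efficiency 8 of these 11 were at least 2-fold lower and 1 higher. Geminin (GMNN), the inhibitor of CDT1, was at 73.26 FPKM in control input, 78.73 on control polyribosomes, 96.65 in knockdown-labelled input and 12.84 on knockdown-labelled polyribosomes, an efficiency difference of -2.92. CDT1 itself was at 0.26, so the inhibitor's message and that of its target lay on opposite sides of 0. With GC content and length removed both were below 0, as were 71.2% of all genes, with GMNN at -2.04. DONSON, a replication fork protein, was at -2.91, and the helicase RECQL4 at 1.11, which became -0.17 with that removal.

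Further subunits of the polymerases and of RPA, which binds single-stranded DNA, were split in efficiency, with 5 of 14 at least 2-fold lower and 2 higher. The primase subunit PRIM1 was at -2.20 and POLD3 of polymerase delta at -2.01, but 2 other subunits of that polymerase were higher, POLD2 at 1.81 and POLD4 at 1.31. With GC content and length removed none of these 4 was 2-fold apart: PRIM1 was at -0.81, POLD3 at -0.85, POLD2 at 0.93 and POLD4 at 0.04. In input 1 of the 14 was at least 2-fold higher, POLE3 at 1.31, and 2 were lower, RFC1 at -1.26 and POLD4 at -1.24. Of 9 genes of nucleotide synthesis, 4 were at least 2-fold lower in efficiency and 0 higher, with GMPS, which makes GMP, at -3.29. In input SHMT1 of folate metabolism was at 1.32 and CTPS1, which makes CTP, at 1.12, whereas DTYMK, the thymidylate kinase, was at -1.96 and IMPDH2 of guanine nucleotide synthesis at -1.08. Among 7 genes that couple chromatin to replication, 4 were at least 2-fold lower in efficiency, the lowest being the histone chaperone NASP at -2.31. Their input differences reached 1.53 for UHRF1, which guides maintenance methylation, and 1.34 for SLBP, which binds histone messages. Of the E2F, DP and RB family 6 genes passed the limit. E2F1 was at 26.05 and 20.76 FPKM in control and knockdown-labelled input and at 20.00 and 62.89 FPKM on polyribosomes, an efficiency difference of 1.92. E2F4 was at 1.21, and the RB relative RBL2 at -1.99. With that removal E2F1 was at 0.86, E2F4 at 0.55 and RBL2 at -0.84, all short of 2-fold.

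Mitotic genes, the other large group of cell cycle messages, also had a lower efficiency, but their input was level. Of 36 mitosis and spindle genes 27 passed the limit. Their input differences had a median of -0.07, with 12 of 27 above 0, where replication genes had 0.60 and 25 of 29. All genes had a median of 0.01, with 50.7% above 0. The median of the mitotic efficiency differences was -1.44, and 19 of 27 (70.4%) were 2-fold lower or more, where 30.1% of all genes were. Their median GC content was 46.5%, and of all genes under 50% GC, 67.3% were lower by as much. With GC content and length removed the efficiency medians of both lists were closer, at -0.74 for mitotic and -0.84 for replication genes, against -0.40 for all genes. With the fractions exchanged, the mitotic medians were -1.70 in input and 1.22 in efficiency. The 12 G1 cyclins, CDKs and inhibitors past the limit had medians of -0.10 in input and 0.08 in efficiency, the latter -0.17 with GC content and length removed. These differences between lists have no test, since each kind of cell has 1 library per fraction.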

How the data were processed

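Poly(A) RNA of input and polyribosome fractions was measured in 4 libraries, 1 per group, grouped by sample title, and columns were matched by header name to the sample descriptions. The deposited values are FPKM per gene symbol, rounded to 0.01, made by the authors. The submitters' processing notes name TopHat, without a version, and the builds hg19 and GRCh37. For the counter, its strand setting, the annotation and filters, nothing is given in the sources used here. A stranded kit was used, per the labels' protocols. A ratio of polyribosome to input FPKM per gene was also deposited by the authors, which equals that of both FPKM after adding 5 (largest gap 5e-10). Depth is unknown, since the lowest value above 0 was 0.01 FPKM in each library, so no interval or floor was computed.

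Differences are of log2(FPKM + 1) for 7379 genes that averaged 5 FPKM or more over the 4 libraries, and understate the change of low genes. No test was possible without replicates, so genes at least 2-fold apart were counted beside the share of all genes. GC content and length came from GENCODE 29 (7336 of 7379 genes, 99.4%, by current or unambiguous older symbol), and a quadratic trend on both was removed as an alternative and tested on simulated data. Promoter windows are RefSeq's (GRCh38.p14), a build other than that of the deposited values. Sequences were matched by symbol. Python 3.11.15, pandas 2.3.3, numpy 2.4.6 and SciPy 1.17.1 were used.

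The members and lists were chosen with earlier results of these data known. All 32 members could be named, and from each other list the 2 highest and 2 lowest genes. NSUN6 was named as the targeted gene and METTL1 because the table's last line of names has it. CD68 was named, and the genes with both knockdown-labelled libraries outside both control libraries were counted, after the values were seen. Alternatives were pseudocounts of 0.1 and 5 FPKM, a minimum mean of 1 FPKM or none, centring on the median of all genes, removal of the trend on GC content and length, exchange of the knockdown-labelled fractions, a 1.5-fold threshold, and counts without CCNE1, the last added after the values were seen.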

Additional observations from a re-analysis of the deposited data

Results flagged for a closer look

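The median translation efficiency of replication genes had opposite signs in control and knockdown-labelled cells, as did that of all genes (0.03 and -0.02). The median over the 29 genes was 0.31 for control cells but -0.72 for knockdown-labelled cells, and the median of the difference per gene was -0.90. This difference was not tested, since each value rests on 1 library per fraction. In knockdown-labelled cells 8 of the 29 genes were above 0. Control values of the 29 genes reached at most 0.48, so an efficiency at least 2-fold lower already placed the second value below 0. Such were 11 single genes, above 0 in control and below 0 in knockdown-labelled cells. They were RFC3 (-3.08), MCM6 (-3.00), RRM1 (-2.73), POLE2 (-2.35), RFC4 (-2.34), CDC6 (-2.22), PCNA (-2.03), MCM4 (-1.95), RRM2 (-1.49), MCM3 (-1.29) and GINS3 (-1.03). None of these differences was tested. The 11 genes were 37.9% of the 29, where 30.1% of all genes were at least 2-fold lower. With the knockdown-labelled fractions exchanged, the difference of all 11 turned sign and the median was 0.46.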

How the results depend on the processing

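With pseudocounts of 0.1 and 5 FPKM and with centring, the 5 medians over the 29 genes kept their sign and moved by less than 0.585 (log2), and the 10 counts stayed within 1.5 times. The median in polyribosome RNA moved most in proportion, from -0.52 to -0.24 with centring and -0.35 with a pseudocount of 5 FPKM. Without a filter, or at a mean of 1 FPKM, 1 gene (POLA1) was at least 2-fold lower in input in place of 0. With GC content and length removed, the counts in polyribosome RNA changed to 1 higher and 4 lower, from 2 and 8. At a 1.5-fold threshold the counts were 16 higher in input, 4 higher in polyribosome RNA, 16 lower and 1 higher in knockdown-labelled efficiency, and 19 lower and 1 higher in the efficiency difference. The share of all genes at this threshold was not computed, so these counts show nothing particular to replication genes.

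Exchange of the knockdown-labelled fractions reversed 4 medians. They became 0.72 for the knockdown-labelled efficiency (9 genes higher, 0 lower), -0.30 for input (3 higher, 6 lower), 0.36 for polyribosome RNA (1 higher, 0 lower) and 0.46 for the efficiency difference (9 higher, 0 lower). Of all 7379 genes, 2128, 1171, 936 and 2049 were higher and 636, 2343, 1031 and 464 lower, in the same order of comparisons. Single values at least 2-fold apart in the header's order that turned sign were, for the knockdown-labelled efficiency, 1.74 for CDC6, 1.58 for MCM4, 2.59 for MCM6, 2.31 for MCM10, 1.33 for POLA1, 2.02 for POLE2, 1.63 for PCNA, 3.05 for RFC3, 2.09 for RFC4, 2.40 for RRM1, 1.18 for RRM2 and 2.05 for CCNE2. For the efficiency difference they were 1.26 for CDC6, 0.46 for MCM3, 1.21 for MCM4, 2.18 for MCM6, 2.57 for MCM10, 0.74 for GINS3, 1.39 for POLA1, 1.70 for POLE2, 1.24 for PCNA, 3.01 for RFC3, 1.85 for RFC4, 2.07 for RRM1, 0.87 for RRM2 and 2.18 for CCNE2. In input they were -0.30 for MCM4, -1.48 for MCM6, -0.46 for PCNA and -0.84 for CCNE2. In polyribosome RNA they were 0.47 for CDC6, 0.70 for MCM6, 0.33 for MCM10, 0.41 for POLE2, 0.31 for RFC3 and 0.36 for RFC4. Of the genes under 2-fold, 20, 11, 11 and 9 of the 32 also turned sign in these 4 comparisons, such as RFC4 in input to -1.49, RFC3 to -2.71, POLE2 to -1.28 and ORC1 in the efficiency difference to 1.17. These follow from the exchange itself. CCNE1 kept an input difference of at least 2-fold, at 2.84, and so did TK1.

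Without CCNE1, chosen after the values were seen, 1 gene was at least 2-fold higher in polyribosome RNA in place of 2.

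No paired analysis was possible because each group has 1 library. The unknown depth leaves the precision of genes under 5 FPKM, such as CCNE2 and POLA1, unknown.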

Other observations

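CTCCA, the core of the sequence that NSUN6 is known to prefer in messages, occurred at least once in the reference transcript of each of the 32 genes, where 93.9% of all genes with a transcript had it. Its median density over the 29 genes past the limit was 1.19 per kilobase, against 1.59 for all genes. Across the 29 genes Spearman's rho between this density and the efficiency difference was 0.27, and across 7336 genes it was 0.29, both as descriptions within the same 4 libraries. Density and GC content are both read from the same transcripts.

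MCM10, POLA1 and CCNE2, the genes with a mean under 5 FPKM, had their lowest value in the knockdown-labelled polyribosome library, at 0.60, 0.15 and 0.21 FPKM. Their GC content was 47.2%, 42.9% and 36.9%, and the last was the lowest of the 32 genes.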
